A study of Saccharomyces cerevisiae with 14 samples.

Results

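Small nucleolar RNAs (snoRNAs) are described here in a yeast experiment that sequenced RNA cross-linked to 3 factors of mRNA decay, the deadenylase Ccr4, the DEAD-box helicase Dhh1 and the Pumilio protein Puf5. The members are the 66 rows, of 5945 in the table of read counts, that the authors typed as snoRNA, 38 of box C/D and 28 of box H/ACA by their textbook classes. The factors were pulled down with an anti-myc antibody from formaldehyde-treated *Saccharomyces cerevisiae* of strain BY4741 grown at 30°, in which the factor named carried myc tags. The groups are the Ccr4 IP, the Dhh1 IP and the Puf5 IP, each with 3 replicate libraries; the UT IP, the same precipitation from untagged cells, also with 3; and the UT input, RNA of untagged cells that was not precipitated, with 2. Cells of all groups were grown without stress, and inputs of the tagged strains were not analysed here. Values of the tagged IPs are given below as with Ccr4, with Dhh1 and with Puf5. The RNA was fragmented with RNase III without selection for poly(A) tails, so RNAs without a tail were sequenced together with mRNAs. For the counts per RNA used here, the methods do not say whether strand was taken into account.

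SnoRNAs are stable noncoding RNAs of the nucleolus, where ribosomal RNA is made, and each works inside a ribonucleoprotein particle. Box C/D snoRNAs pair with RNA and place a 2′-O-methyl group on it through the methyltransferase Nop1, and box H/ACA snoRNAs place pseudouridines through Cbf5. A few do not act as guides alone: U3, U14 and snR30 are needed to cut the precursor of the small subunit rRNA. Mature snoRNAs of yeast carry no long poly(A) tail, while deadenylation by Ccr4 acts on such tails and Puf5 binds 3′ UTRs of mRNAs.

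Of the 66 snoRNAs, 65 matched a snoRNA of the RefSeq annotation, which lists 76. The remaining row joins snR72 to snR78, which are made as a single transcript, and was treated as 1 member. By the RefSeq lengths, box C/D members ran from 82 to 462 nucleotides with a median of 99, and box H/ACA members from 161 to 1004 with a median of 203.5. The longest box C/D length, that of snR17b, includes an intron. The other U3 gene, snR17a, is nearly identical to snR17b and has no row of its own here, so reads of the pair cannot be told apart. The same holds for snR39, whose close relative snR59 has no row.

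Each library held 20376517 to 23943342 counts, 95.1% to 97.4% of them on rRNA, and snoRNAs received 15382 to 56203 counts per library. The mean count of a snoRNA over the 14 libraries had a median of 223 and ran from 7.43 for snR53 to 6837 for snR11, and 10 members averaged under 50. The spread between replicates was alike in the IPs, with a median coefficient of variation over members of 18.5% with Ccr4, 18.7% with Dhh1, 20.7% with Puf5, 21.9% in the UT IP and 10.6% in the input. All comparisons of a tagged IP with the UT IP share its 3 libraries, and with them the chance differences of these controls. In such bulk RNA, fewer bound molecules and more RNA of other kinds in the same library cannot be told apart.

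As a class, snoRNAs took the smallest share of reads in the Puf5 IP. Reads on snoRNAs per 1000000 counted reads (RPM) were 1637, 1871 and 1983 with Ccr4, 1429, 1119 and 1255 with Dhh1, and 997, 701 and 869 with Puf5, against 2347, 1784 and 1638 in the UT IP and 1862 and 1876 in the input. The means were 1830 ± 176 with Ccr4, 1268 ± 155 with Dhh1, 855 ± 149 with Puf5 and 1923 ± 374 in the UT IP (SD, n = 3 each). The Puf5 and Dhh1 libraries all lay below every UT IP and input library, and below every Ccr4 library. The Ccr4 libraries overlapped the UT IP. No test was run on these sums, because the members were chosen with earlier results in view.

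Part of every library is rRNA, and the amount of mRNA differed between the IPs, so the class was also set against mRNA in the same library. Per 100 reads on mRNAs there were 4.02, 5.2 and 5.78 reads on snoRNAs with Ccr4, 3.73, 3.56 and 3.79 with Dhh1, and 3.00, 2.57 and 2.76 with Puf5, against 10.8, 8.22 and 7.51 in the UT IP and 7.42 and 6.68 in the input. On this scale every library of every tagged IP, Ccr4 included, lay below every UT IP and every input library. The means were 5.0 ± 0.897 with Ccr4, 3.69 ± 0.120 with Dhh1, 2.78 ± 0.216 with Puf5 and 8.83 ± 1.71 in the UT IP (SD, n = 3 each); the order Ccr4, Dhh1, Puf5 held without overlap of their libraries. The ratio holds both a change of snoRNAs and one of mRNAs, and does not separate them.

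**Figure D1:**
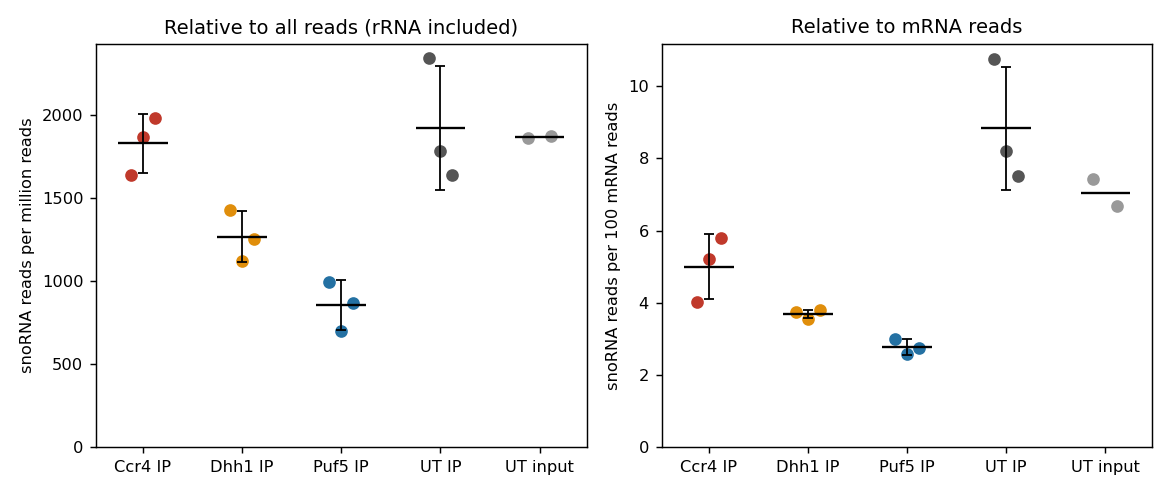
RPM on the 66 snoRNAs, that is reads per 1000000 counted reads (left), and per 100 reads on mRNAs (right), for each library (points), with the mean as a line and the SD as a bar for groups of 3; the 2 inputs have no bar. The Ccr4 IP overlaps the UT IP on the left and lies below it on the right, while the Dhh1 and Puf5 libraries lie below the UT IP in both.

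Both classes had their lowest mean in the Puf5 IP. Box C/D snoRNAs averaged 436 RPM with Ccr4, 376 with Dhh1 and 233 with Puf5, against 492 in the UT IP and 504 in the input. Box H/ACA snoRNAs averaged 1394 with Ccr4, 891 with Dhh1 and 623 with Puf5, against 1431 in the UT IP and 1364 in the input. A single H/ACA member, snR11, held between 6.26% and 29.6% of the snoRNA reads of a library. Without it, the RPM of snoRNAs ran from 1254 to 1645 with Ccr4, from 965 to 1339 with Dhh1 and from 621 to 785 with Puf5, against 1281 to 1653 in the UT IP. The Dhh1 IP then overlapped the UT IP, and the Puf5 IP still lay below it. Also without snR11, H/ACA members made up 70.2% to 71.3% of snoRNA reads with Ccr4, 64.1% to 68.6% with Dhh1 and 67.4% to 67.7% with Puf5, against 64.9% to 65.9% in the UT IP and 62.9% to 65.6% in the input, so the Ccr4 and Puf5 libraries lay above all libraries of untagged cells.

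Spliceosomal small nuclear RNAs, the noncoding nuclear RNAs most like snoRNAs in the table, stood in the same order among the tagged IPs. Their place relative to the libraries of untagged cells differed in part. The 6 snRNA rows summed to 827 to 1003 RPM with Ccr4, 450 to 652 with Dhh1 and 250 to 387 with Puf5, against 522 to 588 in the UT IP and 601 to 616 in the input. In the Ccr4 IP snRNAs thus lay above every library of untagged cells, where snoRNAs overlapped the UT IP, and in the Puf5 IP both classes lay below. In the fit described next, the median log2 of Puf5 over the UT IP was -0.82 for snRNAs and -0.81 for snoRNAs. For Puf5 over Ccr4 it was -1.64 and -0.94. Over the UT IP snRNAs lay higher than snoRNAs with Ccr4 (0.99 against 0.18) and with Dhh1 (0.36 against -0.20).

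Single snoRNAs were tested in a fit of edgeR's quasi-likelihood model to the counts of all RNAs, in which library size was the total of all counted reads. A snoRNA was called higher or lower when the false discovery rate (FDR, after Benjamini and Hochberg) was under 1% and the change over 2-fold, that is a log2 beyond 1. All 66 members passed the filter on low counts, among 4921 RNAs tested in the 12 IP libraries. In the Puf5 IP, 20 snoRNAs fell below the UT IP and 0 rose. The count was 13 without UT IP replicate 1 and 42 to 52 on 4 other scalings. Over all RNAs tested, 0.508% were called lower and 17.6% higher in that comparison, and snoRNAs were 20 of the 25 RNAs called lower. The 20 comprised 11 of 38 box C/D and 9 of 28 box H/ACA members. No snoRNA was higher at an unadjusted p under 0.05 and 0 were called higher by DESeq2, while 51 were lower at an unadjusted p under 0.05. Here and below, counts at an unadjusted p or by DESeq2 stand without a share over all RNAs, which was not computed. All 28 H/ACA members had a log2 below 0, with a median of -0.91, and the C/D median was -0.71.

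In the Dhh1 IP, 4 snoRNAs fell below the UT IP and 0 rose, where 0.0813% of all RNAs tested were called lower and 37.4% higher. These 4 snoRNAs (snR11, snR48, snR60 and snR13) were all of the RNAs called lower in that comparison. At an unadjusted p under 0.05, 3 snoRNAs were higher and 20 lower, and DESeq2 called 0 higher. In the Ccr4 IP, 3 rose (snR64, snR65 and snR189) and 2 fell (snR48 and snR60), where 57.8% of all RNAs tested were called higher and 0.0813% lower. The 3 that rose were 4.55% of the snoRNAs, so that few moved with the bulk of the RNAs, and the 2 that fell were among 4 RNAs called lower. The calls of a rise in the Ccr4 IP depend on the scaling: with TMM factors, library sizes without rRNA, library sizes over mRNAs or DESeq2, 0 snoRNAs were called higher. Whatever the fold, at an FDR under 1%, 10 snoRNAs were higher and 4 lower with Ccr4, against 68.5% and 0.366% of all RNAs tested. By the same rule 13 were lower with Dhh1 and 32 with Puf5, against 0.305% and 0.874%.

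The zero of these log2 values is set by the library size, and most RNAs lay above it in the IPs. The median log2 over all RNAs tested was 1.23 with Ccr4, 0.92 with Dhh1 and 0.60 with Puf5, each over the UT IP, and moved to 0.11, 0.03 and 0.02 with TMM factors. Relative to it, the snoRNA median lay at -1.05 with Ccr4, -1.12 with Dhh1 and -1.41 with Puf5. Over 4 other scalings this distance stayed between -1.03 and -1.0, between -1.14 and -1.13 and between -1.45 and -1.42. A scaling shifts all RNAs of a comparison by nearly the same amount, so this distance could hardly change and its steadiness is no support. Below the median of all RNAs lay 65 of 66 snoRNAs with Ccr4, 64 with Dhh1 and 64 with Puf5. The exceptions were snR65 in the Ccr4 IP and snR62 and snR53 in the other IPs, all with few counts. With TMM factors, 27 snoRNAs were called lower with Ccr4, 36 with Dhh1 and 51 with Puf5, against 5.49%, 1.1% and 1.61% of all RNAs tested. All 20 members called lower in the Puf5 IP and all 4 in the Dhh1 IP kept their call with TMM factors, while 2 of 5 in the Ccr4 IP did.

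**Figure D2:**
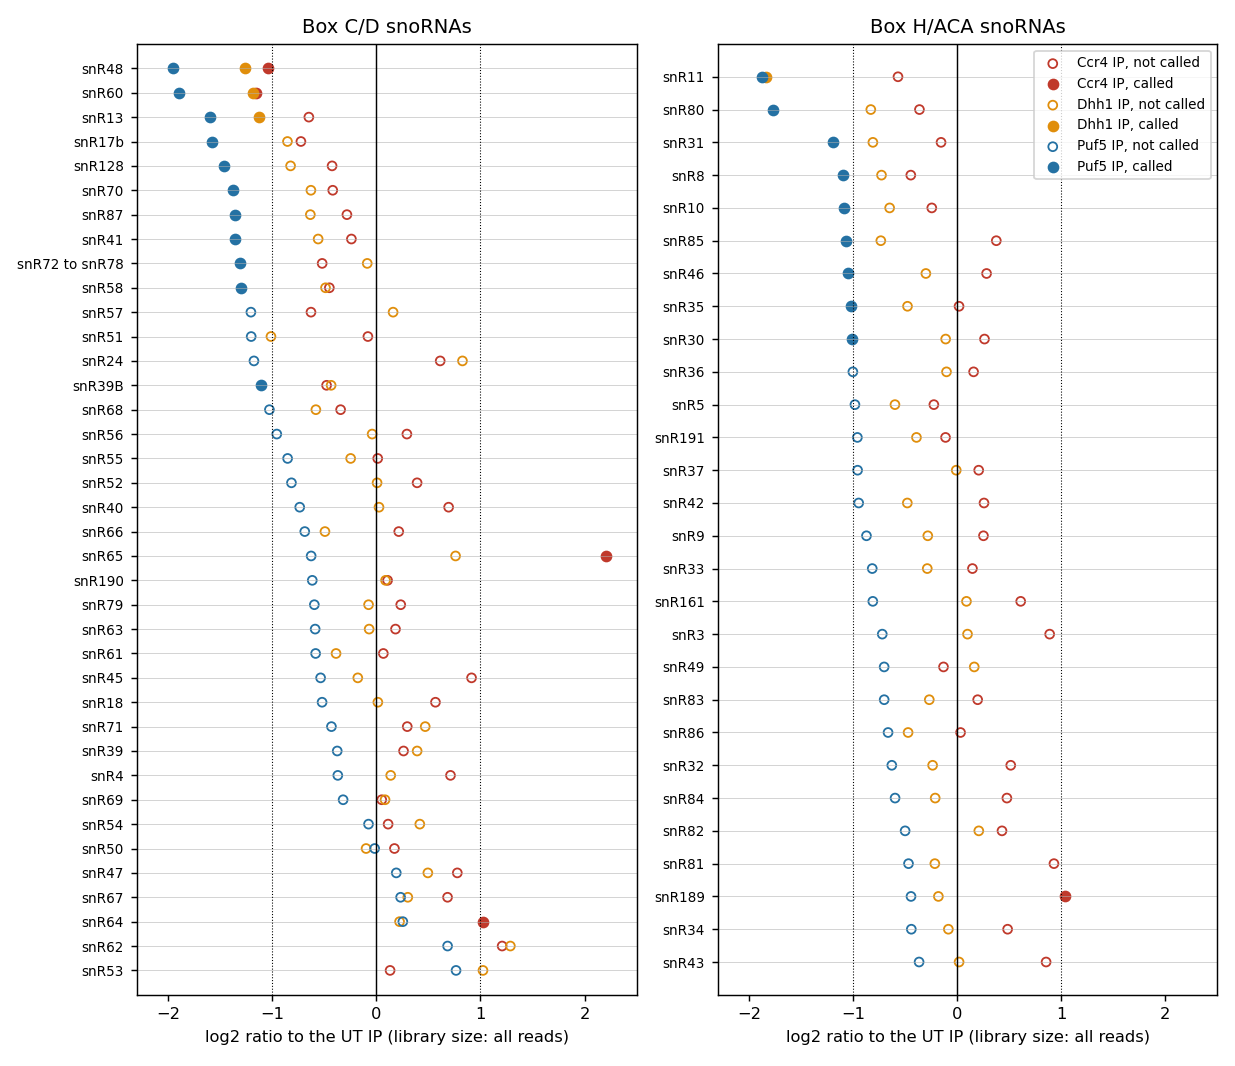
Log2 ratio to the UT IP of each snoRNA in the Ccr4, Dhh1 and Puf5 IPs, box C/D and box H/ACA members apart, scaled to all counted reads; filled points passed an FDR of 1% and a 2-fold change, and dotted lines mark 2-fold. In the Puf5 IP 20 filled points lie below 0 and 0 above. The box H/ACA members of the Puf5 IP all lie below 0, and with other scalings the points of the Ccr4 IP also move mostly below 0.

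Among the snoRNAs with a role in cutting or processing the rRNA precursor, 4 of 5 fell in the Puf5 IP, against 20 of all 66 snoRNAs and 0.508% of all RNAs tested. The U3 gene snR17b had 15.8, 22.2 and 20.2 RPM with Ccr4, 18.2, 17.7 and 17.3 with Dhh1, and 12.8, 10.2 and 9.16 with Puf5, against 36.6, 35.0 and 24.6 in the UT IP and 32.3 and 28.7 in the input. Each of the 9 libraries of tagged cells lay below each of the 5 libraries of untagged cells. The log2 ratio to the UT IP was -1.58 (SE 0.18, edgeR adjusted p = 1.49e-07) in the Puf5 IP. It was -0.85 in the Dhh1 IP (SE 0.18, edgeR adjusted p = 0.000298) and -0.72 in the Ccr4 IP (SE 0.18, edgeR adjusted p = 0.000751), both lower at an FDR under 1% but by less than 2-fold.

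U14, encoded by snR128, is required for the same cuts and also guides a methylation of the small subunit rRNA. It had 59.8, 72.7 and 83.6 RPM with Ccr4, 75.9, 40.8 and 47.2 with Dhh1, and 35.5, 30.6 and 39.0 with Puf5, against 125, 81.8 and 83.5 in the UT IP and 56.5 and 60.4 in the input. It fell in the Puf5 IP with a log2 of -1.46 (SE 0.19, edgeR adjusted p = 1.22e-06). Every Dhh1 library lay below every UT IP library, and the Ccr4 IP overlapped it. The UT IP was the high group here, above both inputs, with a log2 of 0.73 over the input that missed the threshold (edgeR adjusted p = 0.0304).

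The box C/D snoRNA snR190, which lies beside snR128 in the genome and is made from the same precursor, pairs with the large subunit precursor. Its RPM were 45.1, 60.2 and 58.0 with Ccr4, 66.9, 43.3 and 50.8 with Dhh1, and 36.1, 31.8 and 30.8 with Puf5, against 54.0, 53.0 and 44.4 in the UT IP and 64.1 and 72.7 in the input. Its log2 in the Puf5 IP was -0.61 (SE 0.16, edgeR adjusted p = 0.00366), lower at an FDR under 1% but by less than 2-fold. In contrast to snR128, the UT IP lay below both inputs. The ratio of snR128 to snR190 reads was accordingly 1.33, 1.21 and 1.44 with Ccr4, 1.13, 0.943 and 0.930 with Dhh1 and 0.982, 0.961 and 1.27 with Puf5, against 2.31, 1.54 and 1.88 in the UT IP and 0.881 and 0.831 in the input. The 3 UT IP libraries had the highest ratios of all 14.

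The H/ACA member snR30 does not serve as a guide of a modification in this role but is essential for the small subunit, and it was the second most read snoRNA. It had 242, 285 and 323 RPM with Ccr4, 261, 180 and 216 with Dhh1, and 123, 112 and 117 with Puf5, against 269, 219 and 221 in the UT IP and 248 and 251 in the input. The Puf5 libraries agreed closely with each other and lay below all others. The log2 was -1.01 over the UT IP (SE 0.13, edgeR adjusted p = 8.88e-07), -1.27 over the Ccr4 IP (SE 0.13, edgeR adjusted p = 3.41e-08) and -0.90 over the Dhh1 IP (SE 0.13, edgeR adjusted p = 2.77e-05), the last by less than 2-fold. The log2 in the Ccr4 IP was 0.26 and in the Dhh1 IP -0.11, both within the overlap of the groups.

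Another H/ACA member, snR10, supports processing of the precursor and guides a pseudouridine of the large subunit. It had 34.9, 38.0 and 35.7 RPM with Ccr4, 32.7, 24 and 25.3 with Dhh1, and 26.2, 15.3 and 19.2 with Puf5, against 52.7, 36.5 and 39.5 in the UT IP and 38.8 and 33.4 in the input. It fell in the Puf5 IP, with a log2 of -1.08 (SE 0.18, edgeR adjusted p = 3.96e-05). Over the 5 snoRNAs of this role the median log2 was -0.24 with Ccr4, -0.65 with Dhh1 and -1.08 with Puf5, where the medians of all RNAs were 1.23, 0.92 and 0.60.

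The 2 box C/D snoRNAs that guide acetylation of the small subunit rRNA, snR4 and snR45, had more RPM in every Ccr4 library than in any Dhh1 or Puf5 library. RPM on snR45 were 15.5, 18 and 15.6 with Ccr4, 8.47, 6.64 and 7.84 with Dhh1, and 6.93, 4.60 and 6.35 with Puf5, against 11, 8.33 and 6.64 in the UT IP and 18.7 and 14.7 in the input. The Ccr4 libraries lay above all other IP libraries and near the inputs. The log2 of the Ccr4 IP over the UT IP was 0.91 (SE 0.20, edgeR adjusted p = 0.000225), under 2-fold, and lay below the median of all RNAs in that comparison, 1.23. It fell in the Dhh1 IP relative to the Ccr4 IP (log2 -1.09, SE 0.20, edgeR adjusted p = 0.000548) and in the Puf5 IP relative to the Ccr4 IP (log2 -1.45, SE 0.21, edgeR adjusted p = 4.96e-06).

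RPM on snR4 were 15.2, 16.6 and 18.4 with Ccr4, 14, 9.05 and 10.6 with Dhh1, and 7.89, 6.74 and 9.03 with Puf5, against 11.6, 10.6 and 8.45 in the UT IP and 16.1 and 16.9 in the input. The pattern was that of snR45, with the Ccr4 IP above all other IP libraries. The log2 was 0.71 for the Ccr4 IP over the UT IP (SE 0.19, edgeR adjusted p = 0.0015) and -1.08 for the Puf5 IP over the Ccr4 IP (SE 0.19, edgeR adjusted p = 0.000101). Of the 2, only the second passed the 2-fold cutoff. These calls of snR4 and snR45 against the Ccr4 IP depend on the scaling: with TMM factors or DESeq2, 0 snoRNAs were called lower for Dhh1 over Ccr4 and 1 for Puf5 over Ccr4, and snR45 then had a log2 of -0.92 or -0.91 for Puf5 over Ccr4.

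Among the methylation guides of box C/D, snR48 and snR60, both guides of the large subunit rRNA, fell in all tagged IPs. RPM on snR48 were 15.3, 16.3 and 25.0 with Ccr4, 19.5, 14 and 15.1 with Dhh1, and 11.5, 7.61 and 10.9 with Puf5, against 40.3, 31.2 and 45.1 in the UT IP and 26.4 and 26.0 in the input. All libraries of tagged cells lay below all libraries of untagged cells, and the UT IP lay above the input. The log2 over the UT IP was -1.04 in the Ccr4 IP (SE 0.20, edgeR adjusted p = 5.42e-05), -1.26 with Dhh1 (SE 0.20, edgeR adjusted p = 2.09e-05) and -1.95 with Puf5 (SE 0.21, edgeR adjusted p = 2.54e-08). The call in the Ccr4 IP sits at the 2-fold cutoff and was lost without Ccr4 IP replicate 1, Ccr4 IP replicate 2 or UT IP replicate 3, with log2 values of -0.91, -0.95 and -0.92.

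RPM on snR60 were 5.15, 8.65 and 9.67 with Ccr4, 12, 5.23 and 5.75 with Dhh1, and 3.86, 4.46 and 5.75 with Puf5, against 18.3, 9.97 and 24.3 in the UT IP and 10.4 and 14 in the input. The UT IP libraries were spread widely, and Dhh1 IP replicate 1 lay above UT IP replicate 2. The log2 over the UT IP was -1.16 in the Ccr4 IP (SE 0.29, edgeR adjusted p = 0.000812), -1.19 with Dhh1 (SE 0.29, edgeR adjusted p = 0.00106) and -1.89 with Puf5 (SE 0.30, edgeR adjusted p = 1.74e-05). Without UT IP replicate 3 the Ccr4 value was -0.85, and without Ccr4 IP replicate 1 it was -0.93, and neither passed.

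Another methylation guide of the large subunit rRNA, snR13, had 9.35, 10.2 and 9.80 RPM with Ccr4, 5.79, 7.05 and 8.13 with Dhh1, and 6.27, 3.83 and 5.02 with Puf5, against 17.7, 14.3 and 13.9 in the UT IP and 11.9 and 11.4 in the input. The tagged libraries again all lay below those of untagged cells, and the UT IP lay above the input. It fell with Dhh1 (log2 -1.13, SE 0.20, edgeR adjusted p = 5.15e-05) and with Puf5 (log2 -1.60, SE 0.20, edgeR adjusted p = 5.13e-07). In the Ccr4 IP its log2 was -0.65 (SE 0.19, edgeR adjusted p = 0.00374), under 2-fold.

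The methylation guides snR64 and snR65, also of the large subunit, were called higher in the Ccr4 IP, from low counts. RPM on snR64 were 4.89, 6.71 and 6.39 with Ccr4, 3.60, 3.27 and 3.36 with Dhh1, and 3.77, 3.33 and 3.36 with Puf5, against 1.96, 3.41 and 3.39 in the UT IP and 5.30 and 3.22 in the input. The Ccr4 libraries lay above those of the UT IP, with a log2 of 1.03 (SE 0.24, edgeR adjusted p = 0.000412), but one input lay among them. Counts on snR65 were 14, 72 and 8 with Ccr4, 8, 5 and 19 with Dhh1, and 0, 8 and 3 with Puf5, against 11, 2 and 6 in the UT IP and 8 and 2 in the input. Its log2 of 2.21 in the Ccr4 IP (SE 0.76, edgeR adjusted p = 0.00639) came with overlapping groups, and Ccr4 IP replicate 2 alone held most of its counts. Without that library 0 snoRNAs were called higher in the Ccr4 IP.

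Other box C/D members that fell in the Puf5 IP relative to the UT IP were snR70 (log2 -1.38), snR87 (-1.35), snR41 (-1.35), the row that joins snR72 to snR78 (-1.31), snR58 (-1.3) and snR39B (-1.10). Among the 20 box C/D members with none of the special roles and gene arrangements treated apart, 2 were called lower with Ccr4, 3 with Dhh1 and 6 with Puf5, where 0.0813%, 0.0813% and 0.508% of all RNAs tested were, and 2 (snR64 and snR65) were called higher with Ccr4, where 57.8% of all RNAs were.

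Among the pseudouridine guides of box H/ACA, snR11 was the snoRNA with the most reads and varied widely between groups. It guides modification of the large subunit rRNA. It had 383, 303 and 339 RPM with Ccr4, 89.4, 155 and 183 with Dhh1, and 212, 80.0 and 122 with Puf5, against 694, 468 and 357 in the UT IP and 457 and 460 in the input. The Dhh1 and Puf5 libraries lay below all others, and the Ccr4 libraries overlapped the UT IP but lay below the input. It fell with Dhh1 (log2 -1.83, SE 0.25, edgeR adjusted p = 4.67e-06) and with Puf5 (log2 -1.87, SE 0.25, edgeR adjusted p = 1.38e-06). Between the Puf5 IP and the Dhh1 IP the log2 was -0.04, with overlapping groups. Relative to the Ccr4 IP it fell in both, by 1.26 on the log2 scale with Dhh1 (SE 0.25, edgeR adjusted p = 0.000844) and by 1.3 with Puf5 (SE 0.25, edgeR adjusted p = 0.000187). The call between Dhh1 and Ccr4 was lost without Dhh1 IP replicate 1, at a log2 of -1.02. It was also lost with TMM factors and with DESeq2, where 0 snoRNAs were called for Dhh1 over Ccr4 and 1 for Puf5 over Ccr4. Its replicates were spread widely in the UT IP, where replicate 1 was the highest of all libraries.

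The guide of the hypermodified pseudouridine of the small subunit rRNA, snR35, had 126, 154 and 193 RPM with Ccr4, 121, 103 and 111 with Dhh1, and 82.9, 64.0 and 83.5 with Puf5, against 176, 157 and 134 in the UT IP and 91.2 and 99.6 in the input. It fell in the Puf5 IP relative to the UT IP (log2 -1.02, SE 0.15, edgeR adjusted p = 4.68e-06). It was also the only snoRNA higher in the UT IP than in the input at an FDR under 1%, with a log2 of 0.71 (SE 0.17, edgeR adjusted p = 0.00695), under 2-fold. The Ccr4 libraries overlapped the UT IP and the Dhh1 libraries lay below it, and both lay above the 2 inputs.

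The guide snR3, of the large subunit, was the only member with an FDR under 1% in opposite directions in 2 tagged IPs over the UT IP on this scaling. Its RPM were 40.2, 52.5 and 43.3 with Ccr4, 28.5, 23.2 and 26.9 with Dhh1, and 16.1, 13.8 and 14.6 with Puf5, against 24.4, 26.4 and 22.6 in the UT IP and 55.7 and 37.6 in the input. The Puf5 libraries lay below the UT IP, the Ccr4 libraries above it, and the Dhh1 libraries overlapped it. The Puf5 IP fell relative to the Ccr4 IP with a log2 of -1.61 (SE 0.16, edgeR adjusted p = 1.34e-08). Against the UT IP the log2 was 0.89 in the Ccr4 IP (SE 0.15, edgeR adjusted p = 1.55e-05) and -0.72 in the Puf5 IP (SE 0.16, edgeR adjusted p = 0.000696), each at an FDR under 1% but under 2-fold.

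The guide snR189, which acts on both subunits, rose in the Ccr4 IP. It had 6.33, 10.3 and 11.9 RPM with Ccr4, 4.39, 5.0 and 2.78 with Dhh1, and 5.44, 2.05 and 2.64 with Puf5, against 5.47, 3.32 and 5.02 in the UT IP and 6.43 and 4.77 in the input. The Ccr4 libraries lay above the UT IP, and the lowest of them lay beside the higher input. The log2 over the UT IP was 1.04 (SE 0.29, edgeR adjusted p = 0.00224), and it changed sign with TMM factors, to -0.06, and with DESeq2, to -0.10. Relative to the Ccr4 IP it fell with Dhh1 (log2 -1.22, SE 0.30, edgeR adjusted p = 0.00573) and with Puf5 (log2 -1.48, SE 0.30, edgeR adjusted p = 0.000361). The call between Dhh1 and Ccr4 was lost when any library of these 2 groups other than Ccr4 IP replicate 1 was left out. It was also lost with TMM factors and with DESeq2.

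The guide snR81, of the large subunit rRNA and of the spliceosomal U2 RNA, had 7.16, 11.3 and 9.62 RPM with Ccr4, 4.39, 4.09 and 4.14 with Dhh1, and 3.82, 3.78 and 2.98 with Puf5, against 4.97, 5.92 and 3.78 in the UT IP and 6.87 and 5.37 in the input. All Ccr4 libraries lay above all others. Relative to the Ccr4 IP it fell with Dhh1 (log2 -1.14, SE 0.22, edgeR adjusted p = 0.000786) and with Puf5 (log2 -1.40, SE 0.22, edgeR adjusted p = 2.79e-05). In the comparison of Dhh1 with Ccr4 the call was lost without Ccr4 IP replicate 2, at a log2 of -0.99. It was also lost with TMM factors and with DESeq2, where 0 snoRNAs were called for Dhh1 over Ccr4 and 1 for Puf5 over Ccr4.

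**Figure D3:**
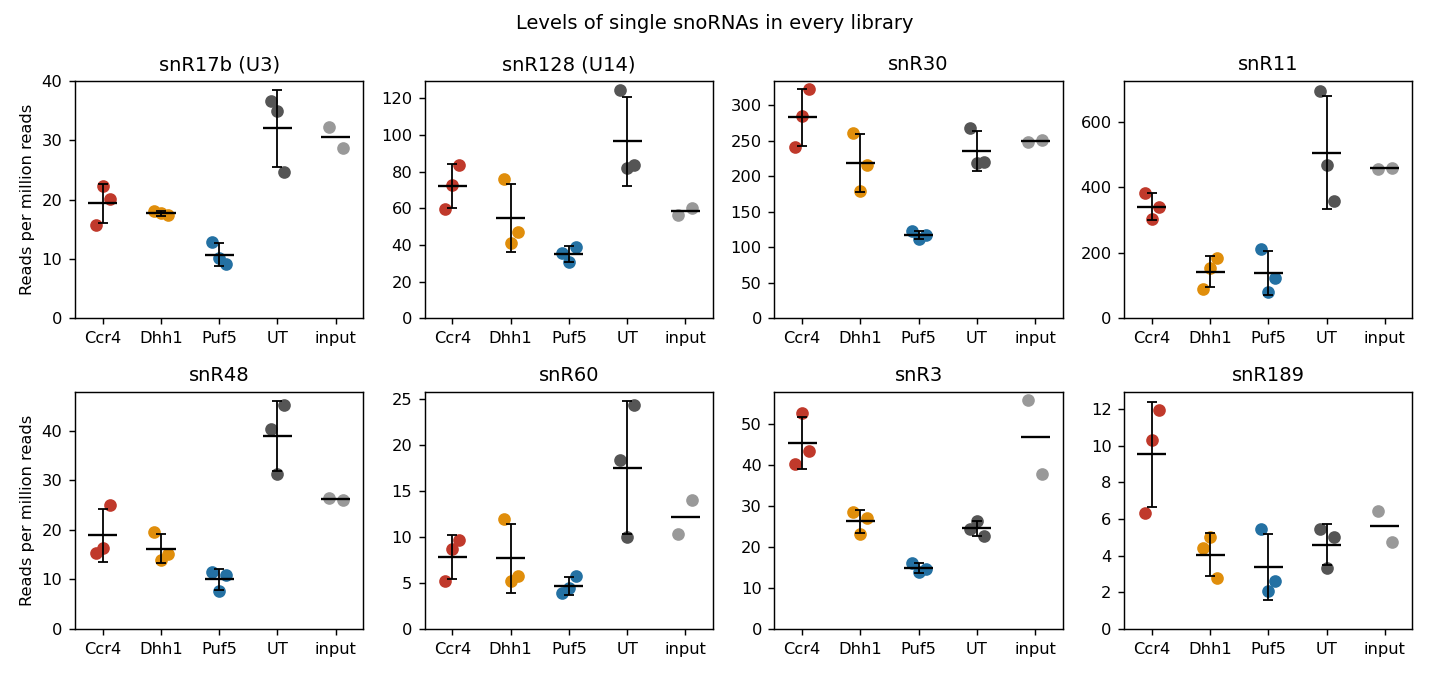
RPM of 8 snoRNAs in every library, with a point for each library, its group on the horizontal axis, lines for means and bars for the SD of groups of 3. The Puf5 points lie lowest for snR17b, snR128, snR30, snR48 and snR3, and below the UT IP for snR11 and snR60. The Ccr4 points of snR3 and snR189 lie above the UT IP and those of snR48 and snR17b below it.

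Members that share a gene or a precursor did not all move together. Of 11 snoRNAs in polycistronic units, where several are cut from one transcript, 4 fell in the Puf5 IP relative to the UT IP (snR128, snR70, snR41 and the row that joins snR72 to snR78), against 20 of all 66 snoRNAs and 0.508% of all RNAs tested. The median log2 over the 11 was -1.20. It was -0.08 with Ccr4 and -0.25 with Dhh1, with 0 called in either, where 57.8% and 37.4% of all RNAs tested were called higher and 0.0813% lower in each. The joined row had 31.0, 49.2 and 41.7 RPM with Ccr4, 79.2, 42.5 and 42.8 with Dhh1, and 27.5, 17.6 and 25.2 with Puf5, against 72.3, 46.4 and 56.1 in the UT IP and 42.9 and 59.4 in the input. The Puf5 libraries lay below all others. It fell relative to the UT IP (log2 -1.31, SE 0.22, edgeR adjusted p = 3.4e-05) and relative to the Dhh1 IP (log2 -1.22, SE 0.22, edgeR adjusted p = 0.000427), and the call against the Dhh1 IP was lost without Dhh1 IP replicate 1. In the unit of snR41, snR70 and snR51, the ratio of snR70 to snR41 reads averaged 2.92 with Ccr4, 3.23 with Dhh1 and 3.14 with Puf5, against 3.24 in the UT IP and 4.91 in the input.

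The 5 snoRNAs released from introns of protein-coding genes (snR18, snR24, snR39, snR54 and snR191) had 0 calls against the UT IP in any tagged IP. Of all RNAs tested, 57.8% were called higher with Ccr4, 37.4% with Dhh1 and 17.6% with Puf5, and 0.0813%, 0.0813% and 0.508% lower. The median log2 of the 5 was 0.26 with Ccr4, 0.39 with Dhh1 and -0.52 with Puf5, below the medians of all RNAs, 1.23, 0.92 and 0.60. Most were rare. Counts on snR24, which lies in the *ASC1* gene, were 18, 53 and 50 with Ccr4, 57, 40 and 42 with Dhh1, and 11, 7 and 16 with Puf5, against 32, 22 and 27 in the UT IP and 40 and 56 in the input. It fell in the Puf5 IP relative to the Dhh1 IP (log2 -2.00, SE 0.42, edgeR adjusted p = 0.00158) and relative to the Ccr4 IP (log2 -1.79, SE 0.42, edgeR adjusted p = 0.00105). Its host had 913, 863 and 749 counts with Ccr4, 1589, 1264 and 1249 with Dhh1, and 1172, 998 and 1316 with Puf5, against 1758, 1580 and 1424 in the UT IP and 1187 and 1282 in the input, so that in the Puf5 IP, unlike snR24, it lay above the Ccr4 IP. For snR191, in *NOG2*, the host had fewer counts than the snoRNA in all 14 libraries, with 340 to 490 on the snoRNA and 88 to 142 on the host in the Ccr4 IP. Whether reads of the unspliced host were counted on the snoRNA was not tested.

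The log2 values between tagged IPs do not have the UT IP as reference. Its libraries still entered the fit, and with it the estimate of the spread behind the p-values. In the Puf5 IP relative to the Ccr4 IP, 29 snoRNAs fell and 0 rose, against 16.9% and 1.34% of all RNAs tested. The 29 comprised 18 of 28 H/ACA and 11 of 38 C/D members, with medians of -1.13 and -0.84, where the median of all RNAs was -0.57. Besides those described, they included snR85 (log2 -1.44), snR161 (-1.42), snR40 (-1.43) and snR80 (-1.41). No member was higher at an unadjusted p under 0.05, and DESeq2, whose scaling put the median of all RNAs at -0.01, called 0 higher and 1 lower. With TMM factors 1 member was called lower as well, against 2.93% of all RNAs tested. The distance of the snoRNA median from that of all RNAs was -0.36, and -0.39 to -0.38 on 4 other scalings, which by their nature hardly alter it. In the Dhh1 IP relative to the Ccr4 IP, 5 fell (snR11, snR189, snR81, snR85 and snR45) and 0 rose, against 3.31% and 0.224% of all RNAs tested. At an unadjusted p under 0.05, 1 was higher and 29 were lower, and DESeq2 called 0 in either direction. Whatever the fold, at an FDR under 1%, 45 snoRNAs were lower for Puf5 over Ccr4, 10 for Dhh1 over Ccr4 and 7 for Puf5 over Dhh1, against 23.7%, 4.82% and 1.91% of all RNAs tested.

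In the Puf5 IP relative to the Dhh1 IP, 2 fell, snR24 and the joined row, and 0 rose, against 0.772% and 1.61% of all RNAs tested. At an unadjusted p under 0.05, 39 were lower and 0 higher, and DESeq2 called 1 lower and 0 higher. Among members averaging 50 counts or more with groups that did not overlap, the largest difference that was not called was that of snR37, a pseudouridine guide of the large subunit. It had 51.1, 67.5 and 66.8 RPM with Ccr4, 70.5, 43.2 and 45.8 with Dhh1, and 33.5, 21.0 and 28.1 with Puf5, against 77.2, 40.7 and 42.5 in the UT IP and 57.6 and 75.6 in the input. Replicate 1 was the highest in the Dhh1 IP, the Puf5 IP and the UT IP, and the Puf5 libraries still lay below all others. The log2 was -0.95 (SE 0.22, edgeR adjusted p = 0.00521), under 2-fold.

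**Figure D4:**
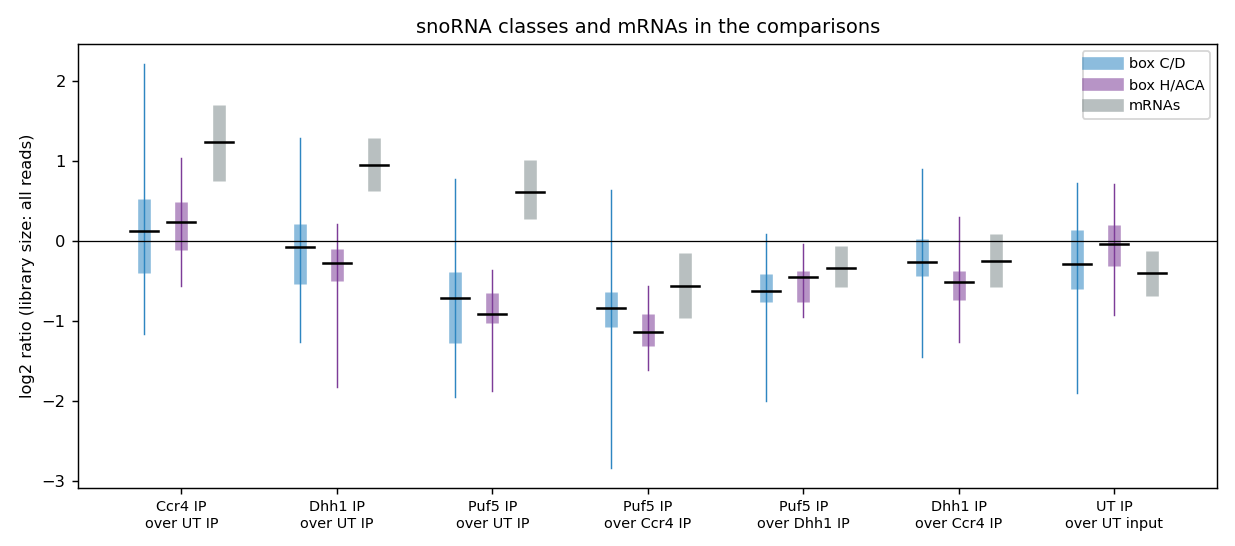
Median log2 ratio (black line), quartiles (bars) and full range (thin lines, snoRNA classes only) of box C/D snoRNAs, box H/ACA snoRNAs and mRNAs in 7 comparisons, scaled to all counted reads. In the tagged IPs over the UT IP both snoRNA classes lie below mRNAs. The mRNA medians there are 1.24 for Ccr4, 0.94 for Dhh1 and 0.61 for Puf5. Where a class lies relative to 0 depends on the scaling in the Ccr4 IP and in the UT IP over the input. Its place relative to mRNAs can hardly depend on it, because a scaling shifts all RNAs of a comparison by nearly the same amount.

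The precipitation of untagged cells gives the background of the method. Of 5006 RNAs tested in the UT IP relative to the input, 2.76% were called lower and 0% higher, and 1 snoRNA fell and 0 rose. By DESeq2, 4 snoRNAs were higher, and at an unadjusted p under 0.05 edgeR gave 5 higher and 16 lower. Whatever the fold, 1 was higher and 3 lower at an FDR under 1%, against 0.02% and 3.16% of all RNAs tested. The snoRNA that fell was the methylation guide snR18, with 6.11, 6.84 and 11.4 RPM with Ccr4, 6.58, 5.45 and 4.48 with Dhh1, and 3.82, 4.28 and 3.28 with Puf5, against 4.64, 6.55 and 5.19 in the UT IP and 10.6 and 12.4 in the input. Its log2 of -1.07 (SE 0.25, edgeR adjusted p = 0.00606) did not pass under any of 4 other scalings, where adjusted p ran from 0.0956 to 0.273, nor when any library but UT IP replicate 2 was left out. The guide snR54, of the small subunit, was next in size among members averaging 50 counts or more, at -1.0, with 1.75, 2.41 and 1.58 RPM in the UT IP and 4.27 and 3.46 in the input (edgeR adjusted p = 0.0406). The snoRNA median of the UT IP over the input was -0.20, and it was above 0 on each of 4 other scalings. Relative to the median of all RNAs it was 0.21 higher, the opposite side from the tagged IPs.

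Set against the input in place of the UT IP, a comparison chosen after the data were seen, the snoRNAs of the Puf5 IP were again low. Over the input 29 snoRNAs fell with Puf5, where 1.84% of all RNAs tested were called lower, and 4 with Dhh1, where 1.06% were. With Ccr4, 0 were called in either direction, against 23.3% of all RNAs tested called higher and 1.04% called lower. The snoRNA median over the input was -0.04 with Ccr4, -0.43 with Dhh1 and -1.04 with Puf5, where the medians of all RNAs were 0.76, 0.50 and 0.16. Of the 20 members called lower against the UT IP in the Puf5 IP, 12 were among the 29. Of the 4 in the Dhh1 IP, 1 was called against the input, and it was snR11, at a log2 of -1.69 (edgeR adjusted p = 5.55e-05). For snR48 and snR13 the Dhh1 values over the input were -0.69 and -0.73, at adjusted p of 0.03 and 0.0215. For snR3 and snR45 the log2 over the input was -0.04 and -0.03 with Ccr4, and -1.65 and -1.48 with Puf5.

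Members with more reads in the input had lower log2 values of the tagged IPs over the UT IP. Across the 66 snoRNAs, Pearson's r between the log2 over the UT IP and the log2 input RPM was -0.33 with Ccr4, -0.52 with Dhh1 and -0.43 with Puf5, with Spearman's rho of -0.24, -0.43 and -0.34. Without the UT IP as reference, r was -0.11 for Puf5 over Ccr4, 0.12 for Puf5 over Dhh1 and -0.20 for Dhh1 over Ccr4. For the UT IP over the input, a ratio that holds the input itself, r was 0.26. The part of the shared UT IP in these relations was not tested. With RefSeq length, over 65 members, r for the log2 over the UT IP was -0.04 with Ccr4, -0.18 with Dhh1 and -0.11 with Puf5. These describe members that share their libraries and, in part, precursors, and carry no test. Per kilobase of RefSeq length, the highest levels in the UT IP were 1964 RPM for snR11, 768 for snR128, 762 for snR35, 390 for snR30 and 344 for snR48, and the lowest were 2.04 for snR53 and 2.71 for snR65. Members snR53 and snR65 rest on too few counts to place them further.

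The authors also counted reads on the 5′, middle and 3′ segment of each RNA, split by length, and the 3 segments summed to the count of the RNA in all 14 libraries. A snoRNA is about as short as a few reads, so a segment is a coarse position. Without snR11, the 3′ segment held 18.4% to 18.9% of snoRNA reads with Ccr4, 19.9% to 21.2% with Dhh1 and 18.4% to 19.2% with Puf5, against 16.3% to 16.8% in the UT IP and 18.1% to 20.2% in the input. The UT IP libraries were the lowest of all, and the tagged IPs lay among or just above the inputs. For box C/D members the mean was 12.1% with Ccr4, 12.5% with Dhh1 and 12.6% with Puf5, against 10.2% in the UT IP and 11% in the input, with overlap.

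For mRNAs the 3′ segment held 38.5% of reads with Ccr4, 35.6% with Dhh1 and 40.4% with Puf5, against 29.8% in the UT IP and 34.5% in the input. The UT IP was lowest here too, but the tagged IPs stood in another order than for snoRNAs without snR11, where the Dhh1 IP had the highest share. For box C/D members alone, the highest mean was that of the Puf5 IP. In box H/ACA without snR11, Dhh1 IP replicate 1 stood at 27.2%, and replicates 2 and 3 at 23.2% and 22.8%. Of the snoRNAs with at least 100 counts in both groups, 46 of 60 had a higher 3′ share with Ccr4 than in the UT IP, 44 of 60 with Dhh1 and 47 of 56 with Puf5, and 23 of 58 had a higher share in the UT IP than in the input. The median difference over these members was 1.70 percentage points with Ccr4, 1.82 with Dhh1 and 2.39 with Puf5, each over the UT IP. It was -0.48 for the UT IP over the input. A like count over all RNAs was not computed. For mRNAs as a class the 3′ share was also higher in each tagged IP than in the UT IP. The counts of members therefore do not set snoRNAs apart from other RNAs. These counts share the UT IP libraries and were not tested.

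**Figure D5:**
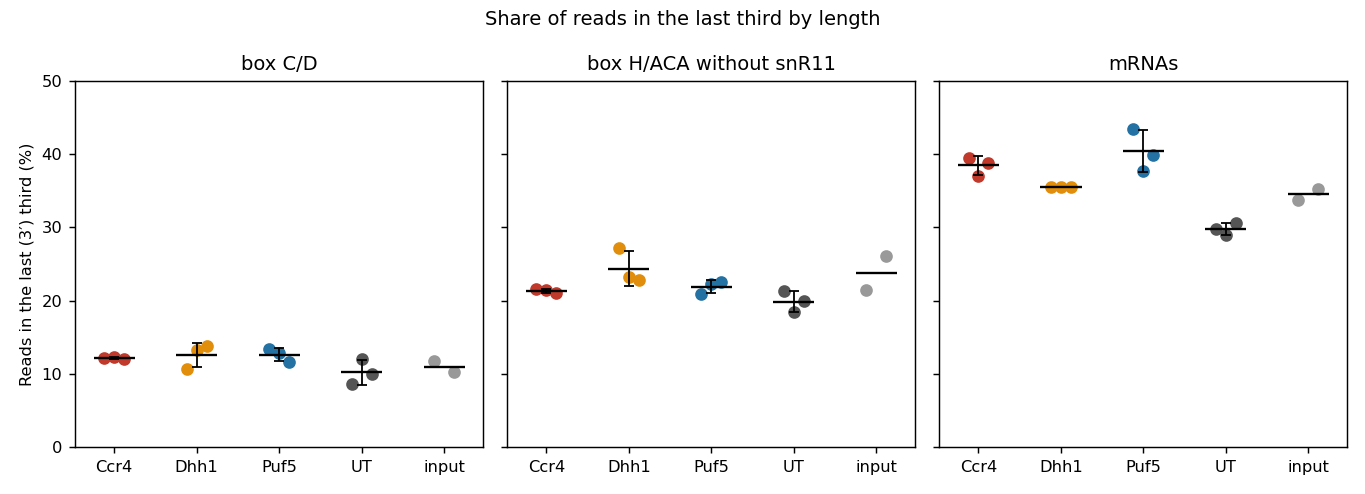
Share of reads in the 3′ segment (percent) of box C/D snoRNAs, box H/ACA snoRNAs without snR11, and mRNAs, with a point for each library by group. For mRNAs all libraries of tagged cells lie above all UT IP libraries, while the groups of snoRNAs lie closer together and overlap.

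For snR13, snR48 and snR128, box C/D members called lower in 1 or more tagged IPs, the difference between the UT IP and the other groups lay mostly in the 5′ segment. For snR17b, also of box C/D and called lower with Puf5, it lay in the other segments. These had 8.77 to 12.6 RPM with Puf5 and 23.9 to 36.0 in the UT IP, where its 5′ segment had only 0.41 to 0.75. The 5′ segment of snR13 had 2.62, 3.38 and 1.44 RPM with Ccr4, 2.63, 2.55 and 2.68 with Dhh1, and 1.71, 0.87 and 1.23 with Puf5, against 12.5, 7.05 and 8.80 in the UT IP and 3.29 and 5.14 in the input. The UT IP stood above every other library. The middle and 3′ segments together had 6.73, 6.80 and 8.36 with Ccr4, 3.16, 4.50 and 5.45 with Dhh1, and 4.56, 2.96 and 3.79 with Puf5, against 5.18, 7.28 and 5.15 in the UT IP and 8.64 and 6.22 in the input. There the Ccr4 libraries overlapped the UT IP, and so did the Dhh1 IP, while the Puf5 libraries lay below it.

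For snR48 the 5′ segment had 11.5 to 21.2 RPM with Ccr4, 11.3 to 15.9 with Dhh1 and 5.51 to 9.30 with Puf5, against 29.1 to 42.4 in the UT IP and 20.4 to 21.6 in the input. The other segments together had 3.78 to 3.98 with Ccr4, 1.90 to 3.69 with Dhh1 and 2.10 to 2.56 with Puf5, against 2.09 to 2.73 in the UT IP and 4.76 to 5.61 in the input. So outside the 5′ segment the Puf5 libraries overlapped the UT IP and the Ccr4 libraries lay above it, although the whole RNA was called lower in both. For snR128 the 5′ segment had 49.3 to 71.2 with Ccr4, 34.7 to 68.3 with Dhh1 and 25.9 to 32.2 with Puf5, against 72.9 to 118 in the UT IP and 47.0 to 54.1 in the input, and the other segments together had 10.6 to 13, 6.09 to 9.59 and 4.74 to 6.93, against 6.56 to 8.97 and 6.26 to 9.47. Over all libraries the 5′ segment held 72.5% to 94.0% of snR48 reads and 79.7% to 94.7% of snR128 reads. A difference of the whole RNA thus had to lie mostly there for these members. The share of the 5′ excess of the UT IP in the calls against it was not tested.

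For snR11 the reads lay elsewhere. Its 5′ segment had 9.30 to 12.8 RPM with Ccr4, 6.54 to 11.2 with Dhh1 and 3.37 to 4.96 with Puf5, against 7.74 to 14.2 in the UT IP and 12.1 in both inputs. The other segments together had 290 to 374 with Ccr4, 82.8 to 172 with Dhh1 and 76.6 to 207 with Puf5, against 346 to 680 in the UT IP and 445 to 448 in the input. In the segments other than the 5′ one, the Dhh1 libraries lay below all libraries of untagged cells. The 5′ segment held only 1.65% to 7.32% of snR11 reads over all libraries, so a difference of the whole RNA had to lie mostly outside it.

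Of 34 listed genes for snoRNP proteins, assembly, processing and hosts, 33 were tested, and 10 rose over the UT IP with Ccr4, 13 with Dhh1 and 9 with Puf5, where 57.8%, 37.4% and 17.6% of all RNAs were called higher. The methyltransferase gene *NOP1* had 480, 414 and 434 counts with Ccr4, 792, 627 and 645 with Dhh1, and 796, 735 and 1228 with Puf5, against 329, 452 and 495 in the UT IP and 401 and 578 in the input. It rose in the Puf5 IP (log2 1.10, SE 0.18, edgeR adjusted p = 3.22e-05). So did *SNU13*, for another core protein of box C/D particles, with a log2 of 1.41 (SE 0.17, edgeR adjusted p = 2.46e-07), and both also rose in the Puf5 IP relative to the Ccr4 IP, with log2 values of 1.02 and 1.06 where snoRNAs fell. The other core genes of box C/D particles had log2 values in the Puf5 IP of 0.49 for *NOP56* and 0.15 for *NOP58*. Among core genes of box H/ACA particles *GAR1* and *NHP2* rose in the Puf5 IP with 1.25 and 1.26, and the pseudouridine synthase gene *CBF5* had 0.32.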

How the data were processed

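Per the study's methods, RNA of each IP and input was fragmented with RNase III and sequenced on a SOLiD 4 instrument. The authors removed 15 bases from the 3′ end of reads, mapped them with SHRiMP 2.2.2 to the 2007 yeast genome, dropped reads under 90% of the maximum score, and deposited raw counts per RNA, and per segment, between published transcript ends. Replicates were not pooled, and the deposited columns of the authors' own log2 enrichments were not used; the RNA type was taken from that table. The coordinates of that build were not used.

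The deposited counts entered edgeR 4.0.16 (R 4.3.3, limma 3.58.1) and its quasi-likelihood F test, with the total of all rows as library size, no TMM factors, a prior count of 1 and the group as the only term. The 12 IP libraries entered the fit for comparisons among IPs, and all 14 libraries that for the UT IP over the input. P-values were adjusted over all RNAs of a fit by the Benjamini-Hochberg method, and calls needed an FDR under 1% and a log2 beyond 1. The p-values measure the spread between the replicate libraries. The fit was tested on simulated data, and the outcome is not given here, so it carries no weight for the calls. Lengths, symbols and synonyms came from the RefSeq table, and Puf5 columns were matched through the synonym Mpt5. Sums, shares and plots used Python 3.11.15 with pandas 2.3.3, numpy 2.4.6, scipy 1.17.1 and matplotlib 3.10.9. Total depth was 20376517 to 23943342 counts per library.

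Members, classes and lists were chosen with earlier results of these data known. Values in every library are given for the snoRNAs of pre-rRNA cleavage or folding, the acetylation guides, the 3 members with the largest log2 in each comparison among those called that averaged 50 counts or more and whose groups did not overlap (where fewer than 3, those called and the next not called), and the 3 with the most counts in the UT IP. Values of snR24, snR64 and snR65, and those by segment, were chosen after they were seen. Alternatives were TMM factors, library sizes without rRNA or over mRNAs, DESeq2 1.42.0, other filters, cutoffs and prior counts, only the groups compared, a replicate block, leaving out each library, and the input as reference.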

Additional observations from a re-analysis of the deposited data

Results flagged for a closer look

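One snoRNA, snR3, moved in opposite directions in 2 tagged IPs at an FDR under 1%, and the difference itself passed the test. It had 16.1, 13.8 and 14.6 RPM (reads scaled to equal library totals) in the Puf5 IP, against 40.2, 52.5 and 43.3 in the Ccr4 IP, and the log2 of the Puf5 IP over the Ccr4 IP was -1.61 (SE 0.16, edgeR adjusted p = 1.34e-08). All Puf5 libraries lay below, and all Ccr4 libraries above, the 24.4, 26.4 and 22.6 of the UT IP. The 2 inputs, at 55.7 and 37.6, lay beside the Ccr4 IP. Relative to the median of all RNAs in each comparison with the UT IP, snR3 was lower in both IPs.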

How the results depend on the processing

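Scaling moved most counts and medians. In the order TMM factors, library sizes without rRNA, library sizes over mRNAs, DESeq2, the snoRNAs called lower over the UT IP numbered 27, 16, 15 and 30 with Ccr4, 36, 20, 22 and 38 with Dhh1, and 51, 42, 47 and 52 with Puf5, and 0 were called higher with Ccr4 in each. With TMM factors, 5.49%, 1.1% and 1.61% of all RNAs tested were called lower with Ccr4, Dhh1 and Puf5. For the other scalings the share over all RNAs was not computed. In the same order of scalings, the snoRNA median was -0.91, -0.56, -0.54 and -0.98 with Ccr4, opposite in sign to the reported 0.18. It was -1.11, -0.79, -0.85 and -1.14 with Dhh1, and -1.41, -1.20, -1.31 and -1.45 with Puf5. For Puf5 over Ccr4, 1, 8, 12 and 1 were lower, with medians of -0.42, -0.57, -0.69 and -0.41. For Dhh1 over Ccr4, 0, 1, 3 and 0 were lower. For Puf5 over Dhh1, 0 were lower with TMM factors and 1 with DESeq2, and the median was -0.22 with TMM factors, -0.34 without rRNA and -0.24 with DESeq2. For the UT IP over the input, 3, 4, 1 and 4 were higher and 0 lower in each, and the median turned to 0.22, 0.23, 0.077 and 0.24. The log2 of snR189 in the Ccr4 IP turned to -0.057 with TMM factors and -0.10 with DESeq2. These scalings shift all RNAs of a comparison by a common amount, given with the median of all RNAs. With the input as reference, 0 were higher and 0 lower with Ccr4, and the medians were -0.040 with Ccr4, -0.43 with Dhh1 and -1.04 with Puf5.

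Without the 2-fold cutoff, 10 were higher and 4 lower with Ccr4, 13 lower with Dhh1 and 32 lower with Puf5, 45 lower for Puf5 over Ccr4, 7 for Puf5 over Dhh1, 10 for Dhh1 over Ccr4, and 1 higher and 3 lower for the UT IP over the input. At a log2 beyond 2, 1 was higher and 0 lower with Ccr4, 0 lower with Dhh1, 0 with Puf5, 1 for Puf5 over Ccr4, 1 for Puf5 over Dhh1, 0 for Dhh1 over Ccr4 and 0 for the UT IP over the input.

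Leaving out each library in turn gave 0 to 5 higher and 0 to 2 lower with Ccr4, 0 to 1 higher and 3 to 6 lower with Dhh1, and 13 to 27 lower with Puf5. It gave 21 to 38 lower for Puf5 over Ccr4, 0 to 6 for Puf5 over Dhh1, 3 to 5 for Dhh1 over Ccr4 and 0 to 2 for the UT IP over the input. The 13 came without UT IP replicate 1, the library with the most snoRNA reads. Without Ccr4 IP replicate 1, 5 were higher and 0 lower with Ccr4, without Ccr4 IP replicate 2, 0 and 1, without Ccr4 IP replicate 3, 1 higher, and without UT IP replicate 3, 0 lower. For Puf5 over Dhh1 the count was 0 without Dhh1 IP replicate 1, 6 without Dhh1 IP replicate 2, 4 without Dhh1 IP replicate 3 and 1 without Puf5 IP replicate 2. For Dhh1 over Ccr4 it was 3 without Ccr4 IP replicate 2, Dhh1 IP replicate 1 or Dhh1 IP replicate 3. The 1 rise with Dhh1 came without Dhh1 IP replicate 3 or UT IP replicate 3. For the UT IP over the input, 2 were lower without UT IP replicate 1 and 0 without UT input replicate 1. The cause was not tested. For the fits without 1 library, the cutoff at a log2 beyond 2, other filters and the replicate block, the share over all RNAs was not computed. These counts thus describe the stability of the snoRNA calls only. Libraries of different groups with the same replicate number did not deviate together over all RNAs (r between -0.04 and 0.04 over 18 pairs). Noise of RNAs with few counts can hide a shared batch, so this does not exclude a pairing. Of its group, replicate 1 had the most snoRNA RPM with Dhh1 (1429), with Puf5 (997) and in the UT IP (2347). It had the fewest with Ccr4 (1637). With the replicate number as a block, 2 were higher and 2 lower with Ccr4, 4 lower with Dhh1 and 22 with Puf5, and 29 for Puf5 over Ccr4. Counts with other filters on low counts, or with only the groups compared in the fit, stayed within 1.5 times, and medians with a prior count of 5, or without snR17b, snR39 and the joined row, moved by less than the spread between replicates. The input reference, and the medians under scaling, were added after the data were seen. With 2 or 3 libraries per group and 10 members under a mean of 50 counts, single rare members are not well placed.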
